A study of Mus musculus with 10 samples.

Results

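The genes described here are 39 genes of fatty acid oxidation and synthesis, taken by name from a list, out of 24538 genes in the count tables. They were compared between metastasis-associated macrophages (MAMs) and resident alveolar macrophages (RAMs) of the mouse lung. By role they fell into 18 genes of mitochondrial oxidation, 4 acyl-CoA synthetases, 5 genes of peroxisomal oxidation, 5 genes of synthesis and 7 desaturases and elongases. Of the 39 genes, 38 reached a mean of 1 FPKM (fragments scaled by transcript length and by the number of mapped fragments) in MAMs or RAMs and entered the test, out of 11571 genes tested in all. Acacb did not reach that level in either group.

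All mice were wild type C57BL6/J females of 8 to 10 weeks, and RNA-seq was run on 5 MAM libraries and 5 RAM libraries. For MAMs, mice had been injected through the tail vein at 6 to 8 weeks of age with E0771-LG cells, a line derived from the mouse breast cancer line E0771, and lung metastases were dissected and pooled from 2 to 4 mice for a sample. RAMs came from normal lungs. Both were sorted by flow cytometry as large CD45+ F4/80+ LY6C- MRC1+ cells, with CD11B+ CD11C- marking MAMs and CD11B- CD11C+ marking RAMs, after a digestion that contained inhibitors of transcription. The state of the lung and the sort gate therefore changed together, and their effects cannot be told apart. MAMs were sorted from metastases seeded by 1 cell line. The labels do not say which mice went into which library, so p-values measure the spread between these libraries.

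Fatty acids are activated to acyl-CoA by synthetases before any further use. Mitochondria take long chains up through the carnitine shuttle and shorten them in a cycle of dehydrogenation, hydration, a second dehydrogenation and thiolytic cleavage, with the electrons passed on by the electron transfer flavoprotein. Peroxisomes run a related cycle that begins with an oxidase and works on very long and branched chains. Synthesis starts from citrate in the cytosol, and its products are then lengthened and desaturated in the endoplasmic reticulum. Alveolar macrophages take up and break down pulmonary surfactant, which consists mostly of lipid.

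Gene counts ran from 55391447 to 87523247 in MAM libraries and from 50746305 to 72150650 in RAM libraries. Lines of the count tables that name no gene held 54.6% to 58.3% of the summed counts of all lines in MAMs and 62.2% to 64.1% in RAMs. Whether these lines count reads, mates or alignments is not given in the sources used here. Levels are given as CPM, counts scaled to the TMM-normalized library size, and comparisons between genes use the deposited FPKM, which are also divided by transcript length. The sorted populations carried their defining markers, with Itgam (CD11B) at 6270 CPM in MAMs and 64.3 CPM in RAMs, and the alveolar macrophage markers Chil3 and Siglecf at 105 and 3.85 CPM in MAMs and 9151 and 333 CPM in RAMs. Summed over 10 markers each, alveolar macrophage genes had 268 to 564 CPM in MAMs and 10194 to 13060 CPM in RAMs, and genes of monocyte-derived and interstitial macrophages had 11965 to 13899 and 154 to 166 CPM. Markers of other cells were lower, and some differed between the groups. Epithelial and tumour cell markers summed to 10.6 to 24.1 CPM in MAMs and 590 to 703 CPM in RAMs, led by Krt19 in both groups (6.09 and 436 CPM). Of the 4 of these markers tested, 3 were lower in MAMs at an adjusted p under 0.05 and 0 higher. Over all genes tested, 27.3% were lower and 28.9% higher. Krt8, which was not tested, was at 1.48 and 0.0453 CPM, and Cldn3 was at 0 in both groups. Stromal and endothelial markers summed to 43.1 to 97.4 and 2.17 to 12.9 CPM, led by Kdr in MAMs, neutrophil markers to 104 to 247 and 93.1 to 121 CPM, led by Csf3r, and lung epithelial markers to 75.2 to 115 and 97.3 to 145 CPM, led by Abca3. Lymphocyte markers summed to 5.65 to 22.1 and 3.98 to 20.4 CPM and erythrocyte markers to 2.17 to 5.34 and 1.27 to 5.28 CPM, the latter led by Alas2. The haemoglobin genes had a count of 0 in every library, but among the deposited FPKM Hbb-bs averaged 2.94 ± 5.79 in MAMs and 0.00303 ± 0.00177 in RAMs and Hbb-b1 2.43 ± 2.17 and 0.235 ± 0.181 (SD, n = 5). Markers of adipocytes, cells rich in these enzymes, summed to 30.0 to 38.1 and 35.2 to 59.2 CPM, led by Lipe in MAMs and Fabp4 in RAMs. Fabp4 is also among the alveolar macrophage markers. Of the 3 adipocyte markers tested, 2 were lower and 1 higher in MAMs at an adjusted p under 0.05. The adipokine genes Adipoq and Lep were at a mean of 0.0869 and 0 CPM in MAMs and at 0 in RAMs. The part of these markers, and of the counts that name no gene, in the differences that follow was not tested. In bulk samples, fewer cells of a type and less RNA per cell cannot be told apart.

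Most of the fatty acid genes were lower in MAMs. Of the 38 genes tested, 25 fell, 2 rose and 11 did not pass an adjusted p of 0.05 (quasi-likelihood test of edgeR, Benjamini-Hochberg adjustment over all 11571 genes). Over all genes tested, 56.2% passed this threshold, with 27.3% lower and 28.9% higher in MAMs. Genes past the threshold were thus common in both directions over all genes, while 65.8% of the fatty acid genes were lower and 5.26% higher. With a fold change over 2 in addition, 18 fatty acid genes fell and 2 rose, where the background was 30.3% of all genes, 15.1% lower and 15.3% higher. The median log2 fold change of the 38 genes, MAMs minus RAMs, was -0.77 against -0.02 for all genes tested. In 24 fatty acid genes every MAM library lay below every RAM library and in 2 every MAM library lay above, while the libraries of the groups did not overlap in 44.9% of all genes tested. Under upper-quartile scaling the log2 fold changes of all genes shifted by a median of -0.16, and 59.7% of all genes called were lower in MAMs, against 48.6% under TMM.

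**Figure D1:**
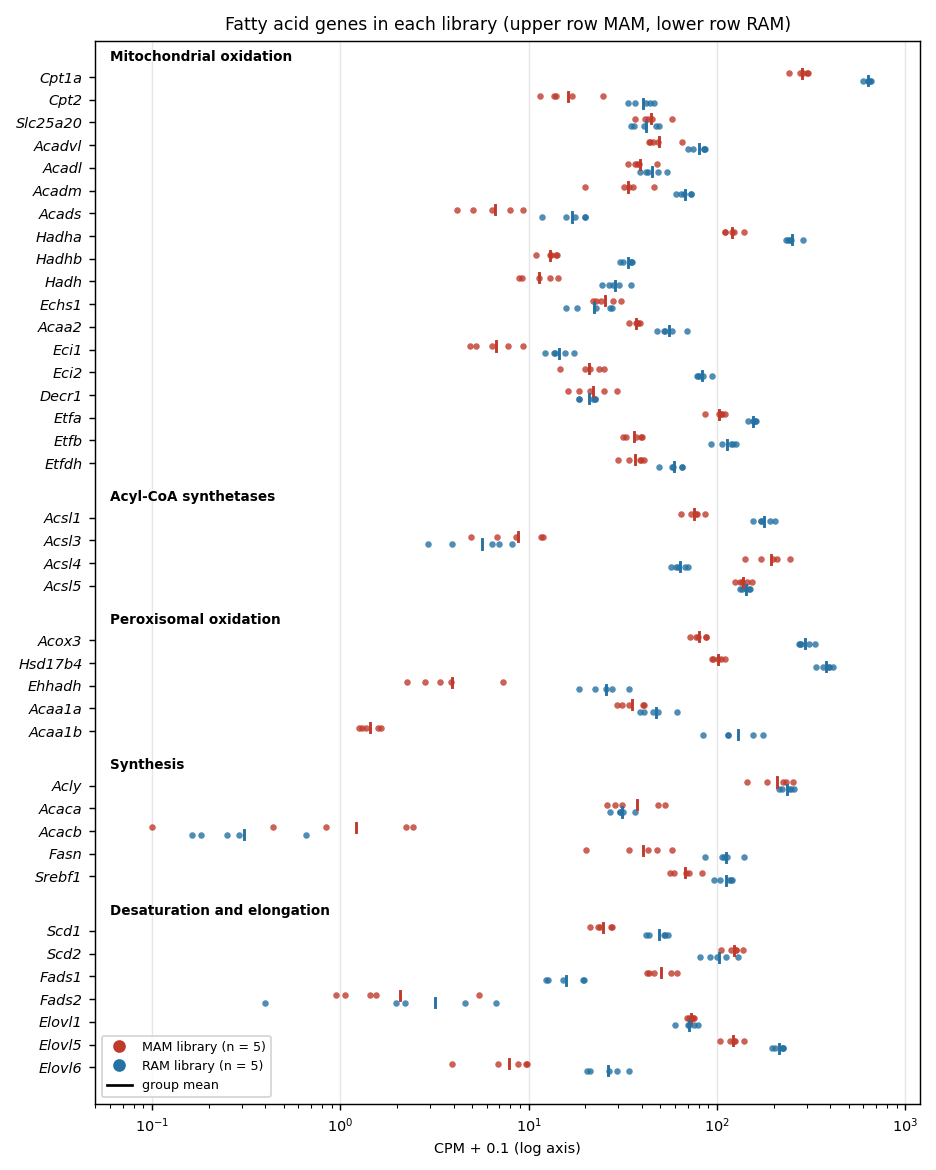
CPM + 0.1 of each of the 39 fatty acid genes on a log axis, grouped by role, with 1 point per library for the 5 MAM and the 5 RAM libraries and a bar at the group mean. MAM points lie left of all RAM points in 24 genes and right of all of them in Acsl4 and Fads1.

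**Figure D2:**
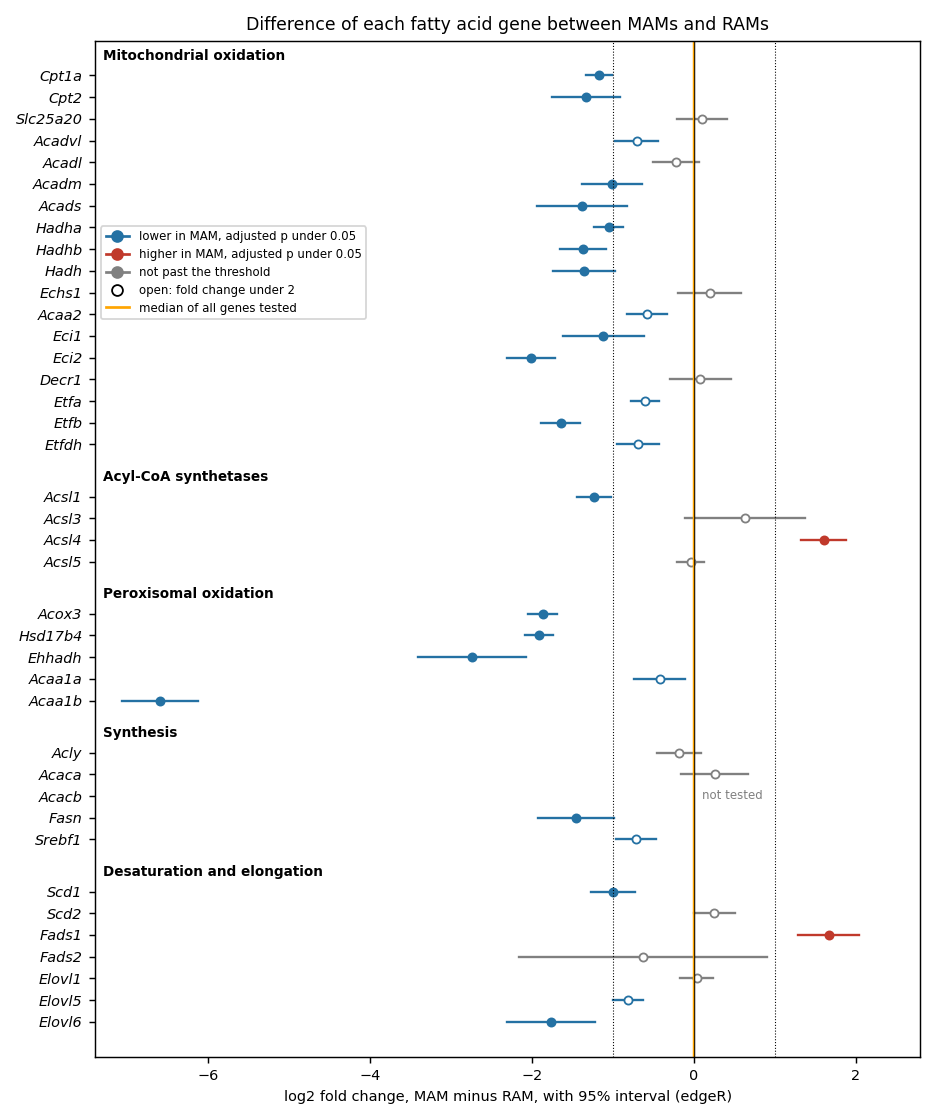
The log2 fold change of MAMs minus RAMs with its 95% interval for each fatty acid gene tested (edgeR), coloured by the call, with open points for a fold change under 2 and dotted lines at a fold change of 2. Peroxisomal genes reach furthest to the left, with Acaa1b at -6.60, and Acsl4 and Fads1 are the 2 genes called higher in MAMs.

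Of the 18 genes of mitochondrial oxidation, 14 fell (77.8%, against 27.3% of all genes tested), none rose (28.9% of all genes) and 4 did not pass the threshold. The fall exceeded 2-fold in 10 of them. Their median log2 fold change was -1.03, and the range was -2.01 to 0.20. Summed over the 18 genes, FPKM ran from 376 to 429 in MAM libraries and from 772 to 834 in RAM libraries.

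Of the 3 genes of the carnitine shuttle, Cpt1a and Cpt2 fell and Slc25a20 did not pass the threshold. Cpt1a encodes the outer membrane carnitine palmitoyltransferase, which commits long-chain fatty acids to the mitochondrion. It had 286, 305, 299, 277 and 241 CPM in the MAM libraries and 649.7, 633, 657, 636 and 595 CPM in the RAM libraries. The libraries of each group lay close together and far from the other group, and Cpt1a fell 2.25-fold (log2 fold change -1.17, SE 0.0739, adjusted p = 2.8e-09). Cpt2, the inner membrane enzyme that transfers the chain back to CoA, was less abundant, at 13.6, 13.8, 16.8, 11.4 and 24.8 CPM in MAMs and 46.3, 43.8, 36.8, 33.6 and 41.9 CPM in RAMs. Its groups did not overlap, although MAM replicate 5 stood above the other MAM libraries, and the fold change was 2.52 (log2 fold change -1.33, SE 0.198, adjusted p = 3.55e-05). Slc25a20, the carnitine-acylcarnitine carrier between these enzymes, had 44.7 ± 7.84 CPM in MAMs and 41.7 ± 6.49 CPM in RAMs (SD, n = 5), with a difference of 0.10 and a 95% interval of -0.21 to 0.41 on the log2 scale (adjusted p = 0.576).

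The acyl-CoA dehydrogenases, which open each turn of the cycle and differ in the chain length they prefer, did not move by the same amount. The short-chain enzyme gene Acads had 4.05, 7.91, 4.99, 6.28 and 9.28 CPM in MAMs and 17.6, 19.9, 19.9, 11.6 and 15.6 CPM in RAMs. It fell 2.60-fold without overlap (log2 fold change -1.38, SE 0.259, adjusted p = 0.000317). For the medium-chain enzyme gene Acadm, MAM libraries held 46.0, 34.1, 19.7, 31.8 and 35.8 CPM and RAM libraries 67.1, 72.5, 72.6, 60.3 and 64.5 CPM. The spread in MAMs came from replicate 3 at the low and replicate 1 at the high end, and the fold change was 2.01 (log2 fold change -1.01, SE 0.173, adjusted p = 0.000139). Acadvl, for very long chains, fell by less, from 80.5 ± 7.49 CPM in RAMs to 49.3 ± 9.12 CPM in MAMs (SD, n = 5; log2 fold change -0.71, SE 0.124, adjusted p = 0.000179). The long-chain enzyme gene Acadl had 38.8 ± 5.53 CPM in MAMs and 45.2 ± 6.18 CPM in RAMs (SD, n = 5), a difference of -0.22 with a 95% interval of -0.50 to 0.06 on the log2 scale (adjusted p = 0.171).

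Hadha and Hadhb encode the α and β subunits of the mitochondrial trifunctional protein, which carries out the remaining steps for long chains. They lie head to head on chromosome 5 with 85 bases between their annotated starts, Hadha on the minus strand from 30118304 to 30155162 and Hadhb on the plus strand from 30155248 to 30184593. The whole of that gap is shown because both genes are transcribed away from it and both fell, at chr5:30155163-30155247 on the plus strand of GRCm38.p6, from the RefSeq assembly, with the capitals marking GGGCGG.
Hadha-Hadhb: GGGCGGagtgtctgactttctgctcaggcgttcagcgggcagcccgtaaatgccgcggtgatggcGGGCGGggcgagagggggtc
Hadha had 120.4, 139, 111, 110.1 and 122 CPM in MAMs and 232, 239, 248, 245 and 287 CPM in RAMs. It fell 2.08-fold (log2 fold change -1.05, SE 0.0857, adjusted p = 5.15e-08). Hadhb had 14.0, 12.8, 10.9, 13.9 and 13.1 CPM in MAMs and 35.4, 34.8, 31.5, 30.7 and 35.0 CPM in RAMs. The groups were far apart for Hadhb too, and it fell 2.59-fold (log2 fold change -1.37, SE 0.135, adjusted p = 4.74e-07). Per length the subunits were not level in either population, and the ratio of Hadha to Hadhb FPKM was 5.62 to 7.89 in MAM libraries and 4.5 to 5.40 in RAM libraries.

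The soluble enzymes of the matrix handle shorter chains. Hadh, the short-chain hydroxyacyl-CoA dehydrogenase gene, had 9.17, 8.81, 14.2, 12.8 and 11.3 CPM in MAMs and 30.0, 24.5, 28.0, 26.7 and 34.8 CPM in RAMs. It fell 2.56-fold (log2 fold change -1.36, SE 0.178, adjusted p = 1.05e-05), and each MAM library lay below each RAM library. Acaa2, a 3-ketoacyl-CoA thiolase gene, fell by less, from 55.8 ± 8.18 to 37.2 ± 1.84 CPM (SD, n = 5; log2 fold change -0.58, SE 0.115, adjusted p = 0.000497). Echs1, the short-chain enoyl-CoA hydratase gene, had 25.4 ± 3.75 CPM in MAMs and 22.2 ± 5.32 CPM in RAMs (SD, n = 5), with overlapping libraries and a difference of 0.20 (95% interval -0.19 to 0.58, adjusted p = 0.38).

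Unsaturated chains need auxiliary enzymes that move or remove double bonds. Eci2, an enoyl-CoA isomerase gene whose product is found in mitochondria and peroxisomes, had the largest fall among the mitochondrial genes here. Its libraries held 19.8, 23.5, 25, 21.0 and 14.6 CPM in MAMs and 78.4, 84.3, 81.7, 79.5 and 94.2 CPM in RAMs. That is a 4.03-fold lower level in MAMs (log2 fold change -2.01, SE 0.139, adjusted p = 7.99e-09). Eci1, the other isomerase gene, had 6.32, 5.15, 7.71, 9.26 and 4.81 CPM in MAMs and 12.1, 13.6, 17.3, 13.6 and 15.6 CPM in RAMs, a 2.17-fold fall (log2 fold change -1.12, SE 0.233, adjusted p = 0.000777). By contrast Decr1, the 2,4-dienoyl-CoA reductase gene, had 22.0 ± 5.24 CPM in MAMs and 20.8 ± 2.08 CPM in RAMs (SD, n = 5), a difference of 0.08 with a 95% interval of -0.30 to 0.46 (adjusted p = 0.724).

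The genes of the electron transfer flavoprotein and its dehydrogenase, which pass electrons from the dehydrogenases to the respiratory chain, all fell. Etfb, the β subunit gene, had 39.5, 32.7, 31.6, 40.0 and 37.1 CPM in MAMs and 126, 122, 92.8, 107 and 119 CPM in RAMs. The lowest RAM library was above every MAM library, and the fold change was 3.13 (log2 fold change -1.65, SE 0.112, adjusted p = 6.4e-09). The α subunit gene Etfa changed less, from 156 ± 5.89 CPM in RAMs to 102 ± 9.27 CPM in MAMs (SD, n = 5; log2 fold change -0.61, SE 0.0809, adjusted p = 1.18e-05), as did the dehydrogenase gene Etfdh, from 58.9 ± 6.47 to 36.6 ± 4.52 CPM (log2 fold change -0.69, SE 0.121, adjusted p = 0.000173). The ratio of Etfb to Etfa FPKM was 1.48 to 1.87 in RAM libraries and 0.671 to 0.934 in MAM libraries. Of the 100-base windows of the longest Etfb transcript, 65.2% also occur in the overlapping annotated gene Gm45233, which is not a gene of the count tables.

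The 4 long-chain acyl-CoA synthetases did not move together. Acsl1 fell, Acsl4 rose, and Acsl3 and Acsl5 did not pass the threshold. The 1 of 4 lower and 1 of 4 higher are near the 27.3% and 28.9% of all genes tested. These counts alone do not set the synthetases apart from all genes. Acsl1, a synthetase abundant in tissues that oxidise or store fat, had 77.1, 78.4, 73.1, 64.7 and 86.1 CPM in MAMs and 191, 203, 171, 172 and 156 CPM in RAMs. It fell 2.35-fold with no overlap (log2 fold change -1.23, SE 0.0972, adjusted p = 3.58e-08). Acsl4, which prefers arachidonic acid and related polyunsaturated chains, had 209, 243, 171, 140.5 and 199 CPM in MAMs and 61.8, 56.6, 60.8, 70.3 and 67.2 CPM in RAMs. Every MAM library was above every RAM library although the MAM libraries were widely spread, and Acsl4 rose 3.04-fold (log2 fold change 1.6, SE 0.129, adjusted p = 4.35e-08).

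Acsl5, whose product is found on mitochondria and endoplasmic reticulum, had 144, 154, 136, 132 and 124 CPM in MAMs and 149, 136, 132, 143 and 150.0 CPM in RAMs. These libraries overlapped throughout, and the difference was -0.04 on the log2 scale with a 95% interval of -0.21 to 0.13 (adjusted p = 0.688). Acsl3, linked to lipid droplets, was the least abundant, at 8.65 ± 3.02 CPM in MAMs and 5.57 ± 2.17 CPM in RAMs (SD, n = 5), with a difference of 0.64 and a wide 95% interval of -0.11 to 1.38 (adjusted p = 0.133). The sum of the 4 genes overlapped between the groups, at 79.3 to 105 FPKM in MAM libraries and 90.6 to 98.3 FPKM in RAM libraries. Its make-up differed, and Acsl1 held a mean of 19.7% of the sum in MAMs and 44.1% in RAMs, Acsl4 33.6% and 10.6%, Acsl5 44.3% and 43.9%, and Acsl3 2.41% and 1.42%. The ratio of Acsl4 to Acsl1 FPKM was 1.49 to 2.06 in MAMs and 0.186 to 0.285 in RAMs.

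**Figure D3:**
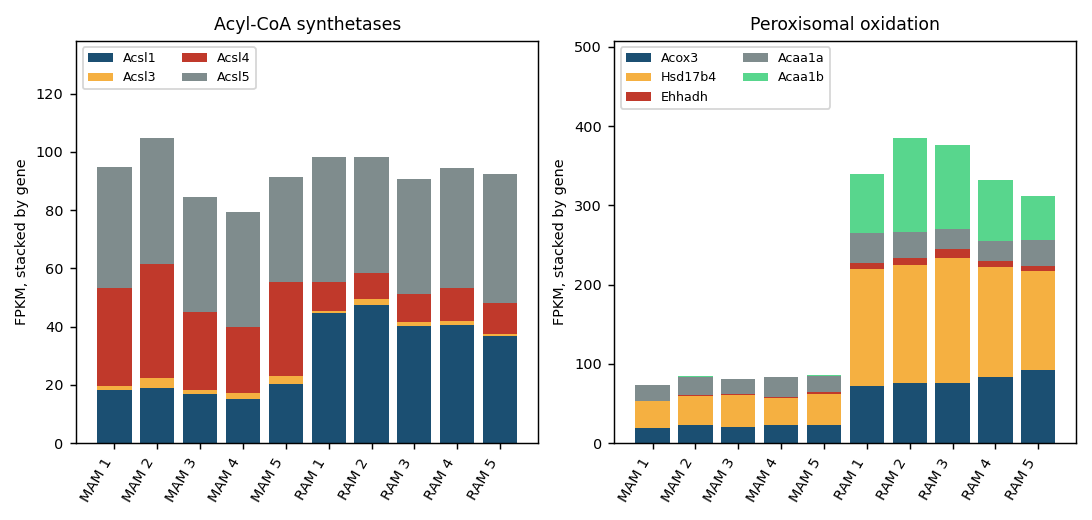
FPKM per library, stacked by gene, for the 4 acyl-CoA synthetases (left) and the 5 peroxisomal oxidation genes (right) in 5 MAM and 5 RAM libraries. The synthetase stacks are of like height, 79.3 to 105 and 90.6 to 98.3 FPKM, with a different make-up, while the peroxisomal stacks reach 73.8 to 85.3 FPKM in MAMs and 312 to 385 FPKM in RAMs.

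All 5 genes of peroxisomal oxidation (100.0%, against 27.3% of all genes tested) fell, 4 of them more than 2-fold. The median log2 fold change was -1.92, and their summed FPKM was 73.8 to 85.3 in MAM libraries and 312 to 385 in RAM libraries. Acox3, an acyl-CoA oxidase gene for branched chains, had 71.7, 79.3, 77.5, 87.0 and 87.6 CPM in MAMs and 272, 278, 281, 309.6 and 331 CPM in RAMs. It fell 3.65-fold (log2 fold change -1.87, SE 0.0852, adjusted p = 6.28e-11). Hsd17b4, which encodes the D-bifunctional protein that hydrates and dehydrogenates the chain, was the most abundant of the 5 per length, at a mean of 144 FPKM in RAMs and 37.0 FPKM in MAMs. Its libraries held 94.0, 101, 110.0, 95.4 and 105 CPM in MAMs and 394, 395, 415, 366 and 335 CPM in RAMs, a 3.78-fold fall (log2 fold change -1.92, SE 0.0796, adjusted p = 2.26e-11). Ehhadh, which encodes the L-bifunctional protein with the same pair of activities, had 2.16, 3.77, 2.71, 3.28 and 7.25 CPM in MAMs and 25.7, 27.8, 34.2, 22.5 and 18.4 CPM in RAMs. MAM replicate 5 was the highest of the MAM libraries and still below the lowest RAM library, and Ehhadh fell 6.68-fold (log2 fold change -2.74, SE 0.314, adjusted p = 2.36e-06).

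The last step is catalysed by the peroxisomal 3-ketoacyl-CoA thiolases, for which the mouse has a pair of genes on chromosome 9 of GRCm38, Acaa1b on the minus strand from 119148023 to 119157093 and Acaa1a on the plus strand from 119339676 to 119350299. Acaa1b had the largest difference of all 38 genes, with 1.16, 1.48, 1.54, 1.27 and 1.21 CPM in MAMs and 115, 175, 156, 115 and 84.0 CPM in RAMs. The log2 fold change was -6.60 (SE 0.219, adjusted p = 1.79e-12), and the mean level in MAMs was 1.03% of that in RAMs. Scaled to library totals without TMM, the 65 genes above 1000 CPM in RAMs had a lowest MAM level of 0.992% of the RAM level. The Acaa1b share is on the TMM scale, so the shares can be compared only roughly. The Acaa1b level in MAMs was a share of this order. Its paralog Acaa1a had 31.2, 33.9, 29.4, 40.4 and 41 CPM in MAMs and 61.6, 45.9, 38.8, 40.7 and 48.7 CPM in RAMs. These libraries overlapped, and the fall was small (log2 fold change -0.42, SE 0.148, adjusted p = 0.0246). The call was lost without MAM replicate 1 (adjusted p = 0.0542), MAM replicate 3 (0.0613) or RAM replicate 1 (0.0822). The ratio of Acaa1b to Acaa1a FPKM was 1.72 to 4.11 in RAM libraries and 0.0279 to 0.0416 in MAM libraries. The paralogs share 22.6% of the 100-base windows of the longest Acaa1b transcript and 9.75% of those of the longest Acaa1a transcript. A single read from these stretches can match both genes, and how its mate affected the assignment was not tested.

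The promoters of the thiolase pair and of Ehhadh are shown because these genes moved by such different amounts. Each is the stretch just before the RefSeq start on GRCm38.p6, written in the direction of transcription. Acaa1b is at chr9:119157094-119157213 on the minus strand, Acaa1a at chr9:119341174-119341293 on the plus strand and Ehhadh at chr16:21787835-21788034 on the minus strand. For Acaa1a the RefSeq and GENCODE starts differ. Its stretch lies inside the gene as GENCODE annotates it, from 119339676, while the stretch of Acaa1b lies just outside its gene. Capitals mark GGGCGG, the CCAAT box and TCACNCCAC on either strand, so that a motif on the other strand appears as its reverse complement.
Acaa1b: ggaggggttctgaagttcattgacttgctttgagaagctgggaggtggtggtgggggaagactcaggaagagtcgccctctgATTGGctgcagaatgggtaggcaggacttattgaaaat
Acaa1a: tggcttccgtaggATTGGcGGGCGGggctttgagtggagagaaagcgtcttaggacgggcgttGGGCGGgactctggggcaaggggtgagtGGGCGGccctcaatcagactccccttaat
Ehhadh: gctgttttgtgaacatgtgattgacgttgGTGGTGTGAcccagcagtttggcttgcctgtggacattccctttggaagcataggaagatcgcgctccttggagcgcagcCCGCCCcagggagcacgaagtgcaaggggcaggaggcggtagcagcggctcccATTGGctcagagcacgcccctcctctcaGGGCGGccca
The 120 bases before Acaa1a hold 3 copies of GGGCGG, the motif bound by SP1 and related factors, and those before Acaa1b hold 0, while each has 1 CCAAT. The Ehhadh stretch holds 2 copies of GGGCGG, 1 CCAAT and 1 TCACNCCAC, a motif of the sterol response factor SREBP1.

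Of the 5 synthesis genes, 2 fell, 2 did not pass the threshold and 1 was not tested. The 2 of 4 past the threshold are near the 56.2% of all genes tested, of which 27.3% were lower and 28.9% higher. Fasn, the fatty acid synthase gene, had 57.4, 33.9, 48.1, 20.1 and 43.0 CPM in MAMs and 86.7, 109, 107, 140.0 and 113 CPM in RAMs. MAM replicate 4 was the lowest and RAM replicate 4 the highest, no library overlapped the other group, and Fasn fell 2.74-fold (log2 fold change -1.46, SE 0.220, adjusted p = 4.29e-05). Srebf1, which encodes the transcription factor SREBP1 that drives lipogenic genes, fell from 111 ± 10.6 CPM in RAMs to 67.5 ± 10.5 CPM in MAMs (SD, n = 5; log2 fold change -0.72, SE 0.114, adjusted p = 6.65e-05). The genes of the steps before Fasn were closer between the groups. Acly, the ATP citrate lyase gene, which supplies cytosolic acetyl-CoA and had the highest FPKM of the 5, had 254, 234, 224, 185 and 145 CPM in MAMs and 256, 220.3, 214, 248 and 241 CPM in RAMs. The MAM libraries covered a wider range than the RAM libraries, and the difference was -0.18 with a 95% interval of -0.45 to 0.09 on the log2 scale (adjusted p = 0.246).

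Acaca, the gene of the acetyl-CoA carboxylase that supplies malonyl-CoA for synthesis, had 37.4 ± 12.3 CPM in MAMs and 31.3 ± 3.54 CPM in RAMs (SD, n = 5), a difference of 0.26 with a 95% interval of -0.15 to 0.67 (adjusted p = 0.273). Of the 100-base windows of its longest transcript, 42.8% also occur in Gm5182, an annotated gene that the count tables do not list. Acacb, the isozyme gene whose malonyl-CoA restrains Cpt1a, was near the floor, at 0, 0.337, 2.12, 0.742 and 2.34 CPM in MAMs and 0.188, 0.150, 0.0828, 0.0626 and 0.554 CPM in RAMs. A count of 0 allows up to 3 counts, which is between 0.0431 and 0.0671 CPM in these MAM libraries. The groups overlapped and no test was made. The ratio of Fasn to Acaca FPKM was 1.29 to 3.30 in MAM libraries and 3.74 to 8.94 in RAM libraries, and the summed FPKM of the 5 genes was 60.0 to 83.5 and 88.3 to 106.

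Among the 7 desaturases and elongases, 3 fell, 1 rose and 3 did not pass the threshold. That is 42.9% lower and 14.3% higher, against 27.3% and 28.9% of all genes tested. The 4 of 7 past the threshold are near the 56.2% of all genes. In the main fit the median log2 fold change of the 7 genes, -0.63, is the value of Fads2, which did not pass. This median was 0.00214 and 0.00231 in limma's fits of FPKM and -0.14 without RAM replicate 4. The stearoyl-CoA desaturases Scd1 and Scd2, which place the first double bond in saturated chains, are neighbours on chromosome 19. Scd1 had 27.2, 23.9, 23.2, 21.0 and 27.7 CPM in MAMs and 55.1, 43.6, 52.3, 53.2 and 41.9 CPM in RAMs. It fell by 1.001 on the log2 scale (SE 0.128, adjusted p = 8.08e-06), just past the limit of a 2-fold change. Scd2 was more abundant and overlapped between the groups, at 123 ± 11.7 CPM in MAMs and 103 ± 18.7 CPM in RAMs (SD, n = 5), a difference of 0.25 (SE 0.119, adjusted p = 0.0827) that passed the threshold only without MAM replicate 3 (0.31, adjusted p = 0.05) or RAM replicate 4 (0.35, adjusted p = 0.0158). The ratio of Scd2 to Scd1 FPKM was 3.97 to 5.75 in MAMs and 1.6 to 2.38 in RAMs.

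The front-end desaturases of polyunsaturated fatty acid synthesis, also neighbours on chromosome 19, differed in level. Fads1, the Δ5 desaturase gene, had 42.5, 43.3, 46.2, 61.6 and 56.9 CPM in MAMs and 12.6, 19.4, 12.2, 19.6 and 15.1 CPM in RAMs. It rose 3.18-fold with a wide gap between the groups (log2 fold change 1.67, SE 0.175, adjusted p = 9.16e-07). Fads2, the Δ6 desaturase gene of the step before it, was low and uneven in both groups, at 1.34, 1.44, 0.962, 0.850 and 5.33 CPM in MAMs and 4.47, 2.10, 1.88, 6.64 and 0.298 CPM in RAMs. Its spread over replicates, 95% of the mean in MAMs and 80.7% in RAMs, was the widest of the tested fatty acid genes, and a difference of -0.63 (95% interval -2.16 to 0.90, adjusted p = 0.478) was within this spread. On the FPKM scale its sign was reversed in limma's fit.

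Elongases add carbon pairs to existing chains. Elovl6, which lengthens palmitate, had 3.82, 8.73, 9.64, 6.77 and 9.70 CPM in MAMs and 21.1, 29.4, 26.6, 34.0 and 20.3 CPM in RAMs. It fell 3.40-fold without overlap (log2 fold change -1.76, SE 0.255, adjusted p = 2.7e-05). Elovl5, for polyunsaturated chains, had the highest FPKM of this group in RAMs and held 117, 139, 104, 123 and 124 CPM in MAMs and 202, 223, 225, 196 and 223 CPM in RAMs. All MAM libraries were below all RAM libraries, and it fell 1.76-fold (log2 fold change -0.82, SE 0.0860, adjusted p = 9.55e-07). Elovl1, for very long saturated chains, was nearly level, with 73.5, 75.9, 71.2, 69.0 and 74.2 CPM in MAMs and 69.9, 75.1, 59.7, 79.3 and 71.1 CPM in RAMs (log2 fold change 0.03, 95% interval -0.17 to 0.24, adjusted p = 0.774).

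Per length, the order of the genes also differed between the populations. In RAMs the highest were Etfb (166 ± 18.3 FPKM), Cpt1a (148 ± 5.22), Hsd17b4 (144 ± 12.5), Etfa (96.7 ± 2.14) and Acaa1b (86.2 ± 25.4; SD, n = 5 each). Etfb, Cpt1a and Hsd17b4 were within their spread of each other, as were Etfa and Acaa1b. In MAMs the highest were Cpt1a (64.6 ± 6.17 FPKM), Etfa (62.8 ± 6.58), Etfb (50.8 ± 4.92), Acly (46.6 ± 9.92) and Elovl1 (44.4 ± 1.88), where Cpt1a and Etfa, and likewise the other 3, were within their spread. Acaa1b was the fifth highest in RAMs, and with 0.745 ± 0.113 FPKM (SD, n = 5) only Acacb was lower in MAMs. The median coefficient of variation over the tested fatty acid genes was 15.3% in MAMs and 11.6% in RAMs, and single genes differed more, with Acadm at 28.1% and 7.82% and Elovl1 at 3.72% and 10.3%.

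The promoters of genes that rose and fell strongly outside the oxidation pathways, and of a dehydrogenase with a nuclear receptor motif, are shown for comparison with those of the thiolases. They end at the base before the RefSeq start on GRCm38.p6, at chrX:142390536-142390655 for Acsl4, chr11:120824548-120824667 for Fasn and chr11:70015429-70015628 for Acadvl, all on the minus strand. Capitals mark the motifs given for the thiolases and in addition AGGTCA, which nuclear receptors such as the peroxisome proliferator-activated receptors bind.
Acsl4: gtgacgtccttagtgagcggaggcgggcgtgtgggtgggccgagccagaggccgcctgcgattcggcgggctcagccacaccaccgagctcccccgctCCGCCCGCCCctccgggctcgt
Fasn: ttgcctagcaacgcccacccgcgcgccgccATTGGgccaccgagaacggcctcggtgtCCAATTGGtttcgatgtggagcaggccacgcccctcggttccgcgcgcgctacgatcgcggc
Acadvl: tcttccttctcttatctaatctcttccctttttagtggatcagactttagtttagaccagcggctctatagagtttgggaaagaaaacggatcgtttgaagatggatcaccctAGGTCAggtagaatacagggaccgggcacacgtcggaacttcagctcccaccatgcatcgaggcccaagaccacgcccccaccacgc
In Acsl4 and Fasn, copies that overlap each other run together, giving 2 of GGGCGG and 3 of CCAAT. Over windows from 250 bases before to 50 bases after the start, 33 of the 39 genes were matched by symbol, in 37 windows of 300 bases, and were searched on both strands. AGGTCA occurred in 21.6% of these windows and in 16.3% of all 32851 windows of the same length, in Cpt1a, Acadvl, Acadm, Echs1, Acly, Acacb, Elovl1 and Elovl6. A pair of AGGTCA copies with 1 base between was in 0 of the 37 windows and in 0.0396% of all. TCACNCCAC was in 5.41% against 1.24%, in Acsl1 and Ehhadh, and its overlap with other motifs was not counted. GGGCGG was in 67.6% against 35.7%, in 23 of the genes, and CCAAT in 51.4% against 37.4%, in 18 of them. These are matches of letters only, and the 32851 windows were not limited to the genes tested. Acaa2, Fads1, Hsd17b4, Scd1, Scd2 and Decr1 were not matched.

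Other genes of the same pathways went in both directions. Of 20 other mitochondrial genes tested, 9 fell and 3 rose, with a median log2 fold change of -0.62. That is 45.0% lower and 15.0% higher, against 27.3% and 28.9% of all genes tested. The largest changes were in Acss1, a mitochondrial acetyl-CoA synthetase gene (-1.95), Acot2, an acyl-CoA thioesterase gene (-1.78), and Acat1, an acetoacetyl-CoA thiolase gene (-1.53). Of 32 other peroxisomal genes, 14 fell and 4 rose (43.75% and 12.5%), with a median of -0.33. Among them the largest changes included the transporter gene Abcd2 (-3.84) and the thioesterase gene Acot4 (-3.78). Abcd2 had 21.0 ± 3.65 CPM in MAMs and 301 ± 46.3 CPM in RAMs (SD, n = 5), while Acot4 was low, at 0.234 ± 0.232 and 3.29 ± 0.789 CPM. Other genes of synthesis, desaturation and elongation went both ways, with 4 of 14 lower and 4 higher (28.6% each, near the 27.3% and 28.9% of all genes) and a median of -0.24, led by Cyb5r3, whose reductase serves desaturases (-1.37), the cytosolic acetyl-CoA synthetase gene Acss2 (1.10) and Mid1ip1, whose product activates acetyl-CoA carboxylase (1.03). In the tricarboxylic acid cycle, which takes up the acetyl-CoA, 8 of 17 genes fell and 1 rose (47.1% and 5.88%) with a median of -0.02. The largest changes there were in Suclg2 (-1.08), Idh3g (-0.91) and Fh1 (-0.63). Genes past the threshold in either direction numbered 12 of 20, 18 of 32, 8 of 14 and 9 of 17 in these lists. Each share is near the 56.2% of all genes tested.

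Among 22 regulators of these pathways tested, 8 fell and 3 rose, with a median of -0.14. These are 36.4% lower and 13.6% higher, against 27.3% and 28.9% of all genes, and the 11 called are a smaller share than the 56.2% of all genes. Mlxipl, which encodes the carbohydrate response factor ChREBP, had 55.5 ± 18.7 CPM in MAMs and 0.5 ± 0.139 CPM in RAMs (SD, n = 5; log2 fold change 6.80, SE 0.289, adjusted p = 2.88e-11). Scaled to library totals without TMM, the 86 genes above 1000 CPM in MAMs had a lowest RAM level of 1.06% of the MAM level. The values of Mlxipl are on the TMM scale, so the comparison is only rough. The Mlxipl level in RAMs was a share of this order. Pparg, a nuclear receptor gene that is also among the alveolar macrophage markers used above, fell from 201 ± 35.1 to 36.6 ± 3.23 CPM (log2 fold change -2.45, SE 0.120, adjusted p = 1.37e-10). Ppargc1b, a coactivator gene of oxidative metabolism, fell by 1.63 on the log2 scale, from 24.5 ± 4.18 to 7.93 ± 4.09 CPM.

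**Figure D4:**
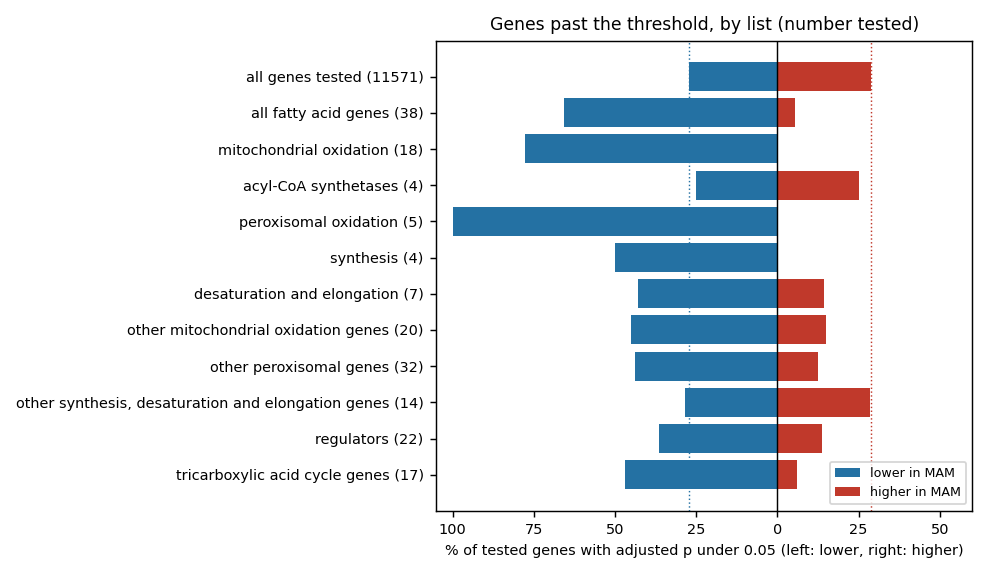
Percent of tested genes with an adjusted p under 0.05 that were lower (left) or higher (right) in MAMs, for all genes tested, the fatty acid genes and their groups, and the other lists, with the number tested in brackets and dotted lines at the values for all genes. Peroxisomal and mitochondrial oxidation genes have the longest bars to the left, 100.0% of 5 and 77.8% of 18, and none to the right.

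Positions and overlaps limit some values. In the GENCODE annotation of GRCm38, 25 of the 39 genes are overlapped by another annotated gene and 12 by a protein-coding one, among them Acaa1a by Myd88 and Slc22a14, Acaa1b by Dlec1 and Hadha by Garem2, all on the other strand. Whether the counting used strand is not given in the sources used here, so reads in such overlaps are uncertain. Only the longest annotated transcript of each gene was searched for shared 100-base windows, and 28 of the 39 share none with the transcripts of another gene. Some of these longest transcripts have few exons, such as 1 for Slc25a20 and 2 for Eci2. Sharing by the other transcripts of a gene was not measured.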

How the data were processed

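RNA from 5 MAM and 5 RAM samples was sequenced. Per the labels and the paper, the authors made libraries with an Ovation RNA-Seq V2 kit, aligned reads to GRCm38 with TopHat2 2.0.13, counted unique reads per gene on UCSC RefGene models with HTSeq 0.6.1, and deposited whole-number counts per library. The deposited FPKM were computed by the authors with Cufflinks 2.2.1. Groups were taken from the labels.

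Lines that name no gene, 54.6% to 64.1% of each count table, were left out. Genes were tested where FPKM averaged 1 or more in MAMs or RAMs, with edgeR 4.0.16 (R 4.3.3), using TMM normalization, the quasi-likelihood test of MAMs against RAMs without covariates and Benjamini-Hochberg adjustment over all 11571 genes. A gene was called at an adjusted p under 0.05, and separately with a fold change over 2. A floor of 3 counts covers counting error alone, since reads that carry no molecular identifiers can be copies of 1 molecule. Replicates within a group correlated at r = 0.950 to 0.978 on log2 CPM, with a prior count of 2, and no libraries were identical.

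The alternatives were DESeq2 1.42.0 (the authors used DESeq2 1.6.3), RLE and upper-quartile scaling, edgeR's filter or no filter, a replicate block, a test against a 2-fold change, limma 3.58.1 on log2 of FPKM with 1 or 0.1 added, subtraction of 1% of the other group's level, and leaving out each library. The fits were tested on simulated data. Every fatty acid gene is named, with values per library for genes past both thresholds and for the genes with the highest mean FPKM of each group. Of other lists the 3 largest changes are named, and of marker lists the most abundant gene, except for some genes that are not reported here. Members and lists were chosen with earlier results of these data known, from general knowledge, and no set test was made. Positions are from GENCODE M21 and promoters from RefSeq (GRCm38.p6). Plots used matplotlib 3.10.9 (Python 3.11.15).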

Additional observations from a re-analysis of the deposited data

Results flagged for a closer look

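In 4 of 78 gene and group combinations, 1 library of 5 stood apart from the others by Dixon's criterion, which chance meets in about 1 in 20 groups. Acadvl had 65.3 CPM in MAM replicate 1, against 43.2 to 48.4 CPM in the other MAM libraries. Hadha had 287 CPM in RAM replicate 5, against 232 to 248 CPM in the other RAM libraries. Acacb had 0.554 CPM in RAM replicate 5, against 0.0626 to 0.188 CPM in the others. Fads2 had 5.33 CPM in MAM replicate 5, against 0.850 to 1.44 CPM in the others.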

How the results depend on the processing

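Over 38 genes and 20 alternatives, 731 of 760 values kept their direction and their side of the threshold, 16 were no longer past it, 5 passed it in addition and 8 changed sign. The number of fatty acid genes lower in MAMs was 12 when tested against a fold change of 2 and otherwise 24 to 28, and 2 to 3 were higher. The 28 were under upper-quartile scaling. Over all 11571 genes, 1112 were lower and 1399 higher in the test against a fold change of 2. Under upper-quartile scaling 4072 were lower and 2745 higher, and in the main fit 3160 and 3344. Upper-quartile scaling moved the mitochondrial median to -1.20 and the peroxisomal median to -2.08, and Acadl (-0.39), Acsl5 (-0.21) and Acly (-0.35) passed the threshold there. The desaturase and elongase median is the value of Fads2 in the main fit, but not in every alternative. The median became 0.00214 with limma on log2(FPKM + 1) and 0.00231 on log2(FPKM + 0.1). With 1 library left out it ran from -0.83 to -0.14, and -0.14 was without RAM replicate 4. The mitochondrial median ran from -1.08 to -0.95, the latter without MAM replicate 3, and the peroxisomal median from -1.96 to -1.89. Signs changed for Slc25a20 (-0.065 under upper-quartile scaling, and -0.0066 to 0.16 with 1 library left out, negative without MAM replicate 1), Decr1 (-0.088 and -0.044 to 0.17, negative without MAM replicate 2), Elovl1 (-0.13 and -0.028 to 0.073, negative without RAM replicate 3) and Fads2 (0.03 on log2(FPKM + 1), 0.26 on log2(FPKM + 0.1)), none of them past the threshold. The log2 fold change of Acaa1b ran from -10.63, after subtraction of 1% of the other group's level, to -5.60 on log2(FPKM + 1). That scale also gave -2.06 for Ehhadh and -1.15 for Elovl6, since a pseudocount shrinks low values.

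MAM and RAM libraries share replicate numbers. The correlations of their deviations by number were -7.04e-05, -0.037, 0.029, 2.23e-05 and 0.015, and 2 of 5 MAM libraries correlated best with the RAM library of their number. These values show no pairing by number. Whether the samples were paired is not given in the sources used here. With the replicate block, 25 fatty acid genes were lower and 2 higher, and 6305 genes in all passed the threshold, against 6504. The causes of these differences were not tested, except where the alternative's construction gives them. The lowest count of a tested fatty acid gene in any library was 14, and Acacb was near the floor.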
